A study of Mus musculus with 14 samples.

Results

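The genes of mitochondrial and peroxisomal fatty acid oxidation were followed in haematopoietic stem cells and granulocyte-monocyte progenitors of mice with and without the AML1-ETO fusion. The group was a list of 43 gene symbols taken from general knowledge of the pathway, and all 43 were found among the 54532 genes of the count table. It holds 6 genes of the carnitine shuttle, 18 of the mitochondrial oxidation spiral, 13 of peroxisomes and 6 regulators. The rule uses gene symbols alone, with no measured value. RNA sequencing covered 14 bulk samples of sorted marrow cells of the C57BL/6 strain in 4 groups: LT-HSCs, long-term haematopoietic stem cells, of AML1-ETO mice (3 samples) and of control mice (4 samples), and GMPs, granulocyte-monocyte progenitors, of AML1-ETO mice (3 samples) and of control mice (4 samples). AML1-ETO mice carry the genotype Runx1-Runx1t1, the mouse counterpart of the leukaemia fusion of RUNX1 with RUNX1T1, and controls are labelled WT. Poly[I:C], a double-stranded RNA that triggers interferon, is listed for every sample, controls included, as 4 injections of 5 mg/kg given every other day. In the AML1-ETO mice it switches the fusion on through Mx1-Cre, whose interferon-responsive promoter is active in blood cells and in several other tissues, so the fusion is not limited to the sorted cells. The title of the series names fatty acid metabolism and a block of differentiation before leukaemia as its subject. The labels give neither age nor sorting markers, nor whether replicates of a group came from different mice, and p-values thus reflect only how far these samples vary, a variation that may be technical.

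Fatty acids enter mitochondria as carnitine esters. Cpt1 enzymes of the outer membrane make the ester, Slc25a20 carries it across the inner membrane and Cpt2 turns it back into acyl-CoA, which the spiral then shortens by dehydrogenation, hydration, another dehydrogenation and thiolysis. Electrons of the first dehydrogenation pass through the flavoprotein of Etfa and Etfb and through Etfdh into the respiratory chain. Peroxisomes shorten very long and branched chains by a parallel route, beginning with transporters of the Abcd family and acyl-CoA oxidases. PPAR nuclear receptors and their coactivators regulate many genes of both routes, and in mouse marrow PPAR-delta and fatty acid oxidation have been linked to the maintenance of stem cells.

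The libraries held 13210952 to 19403864 counts and 12106 to 19508 genes with at least 1 count. Control LT-HSC replicate 3 had the fewest genes, and in control LT-HSC replicate 2 Ighm, an immunoglobulin gene, took 4.80% of the counts. Runx1t1, the fusion partner gene, stood at 85.6, 164 and 125 CPM in LT-HSCs of AML1-ETO mice against 3.97, 0, 18.2 and 11.2 CPM in LT-HSCs of control mice, and at 26.0, 26.3 and 45.7 CPM in GMPs of AML1-ETO mice against 2.62, 2.32, 1.69 and 2.74 CPM in GMPs of control mice. In both cell types the AML1-ETO values lay above the control range. CPM are counts of a gene scaled to a common library total, with TMM factors. Summed over 7 GMP markers such as Mpo and Elane, levels were 20971 to 35100 CPM in AML1-ETO GMPs, 28028 to 32190 CPM in control GMPs, 1134 to 1441 CPM in AML1-ETO LT-HSCs and 69.6 to 412 CPM in control LT-HSCs. Over 7 LT-HSC markers such as Procr and Hlf they were 20.8 to 208, 10.4 to 15.1, 510 to 622 and 238 to 1186 CPM in the same order of groups. Elane was at 0 counts in AML1-ETO LT-HSCs, Cebpe in control LT-HSCs and Hoxb5 in AML1-ETO GMPs.

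Levels of the 43 genes can be compared with each other only per length, as CPM per kb of exons. The length merged the exons of all annotated transcripts of a gene. It was 8730 bases for Hadha and 8286 for Echs1, against 2005 for Acadl and 1516 for Acaa2. Ranks depend on this choice, and other lengths were not tested. On that scale Acadl, the long-chain acyl-CoA dehydrogenase, was the highest by mean in both stem cell groups, at 71.5 ± 2.76 in AML1-ETO LT-HSCs and 46.0 ± 10.7 CPM per kb in control LT-HSCs (mean ± SD, n = 3 and 4). In control LT-HSCs Acads and Hsd17b10 followed at 37.6 ± 9.68 and 37.5 ± 19.5 CPM per kb, gaps under 1 SD of Acadl. Acaa2, the mitochondrial thiolase that closes the spiral, was the highest in both GMP groups, at 50.9 ± 6.90 in AML1-ETO GMPs and 61.2 ± 5.56 CPM per kb in control GMPs (n = 3 and 4). Etfa came next to it in GMPs, at 45.2 ± 5.29 and 46.6 ± 3.92 CPM per kb in AML1-ETO and control GMPs, a gap to Acaa2 that is under 1 SD of Acaa2 in AML1-ETO GMPs. Cpt1a, the form of Cpt1 known from liver, was far above its sister genes, with 34.7 ± 8.99, 19.9 ± 6.23, 25.1 ± 4.94 and 18.1 ± 2.29 CPM per kb in AML1-ETO LT-HSCs, control LT-HSCs, AML1-ETO GMPs and control GMPs. Cpt1b, the muscle form, did not exceed 0.229 CPM per kb in any group, and Cpt1c, the form known from brain, did not exceed 2.30 CPM per kb. Among the regulators Ppara was at 0 counts in all 14 libraries, which for a group allows up to 0.0430 to 0.0650 CPM (a floor of 3 counts over the group, covering counting error only). Ppargc1a, a coactivator of PPARs, and Pdk4, the pyruvate dehydrogenase kinase that fasting induces, had counts in 2 control LT-HSC libraries each, at 2.16, 1.57, 0 and 0 CPM and at 2.68, 0, 0 and 3.88 CPM, and were at 0 in the other 3 groups. Ppard had counts in every library. The coactivator Ppargc1b averaged 13.2 ± 1.88, 9.19 ± 5.93, 15.6 ± 5.00 and 16.0 ± 1.31 CPM in AML1-ETO LT-HSCs, control LT-HSCs, AML1-ETO GMPs and control GMPs.

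**Figure D1:**
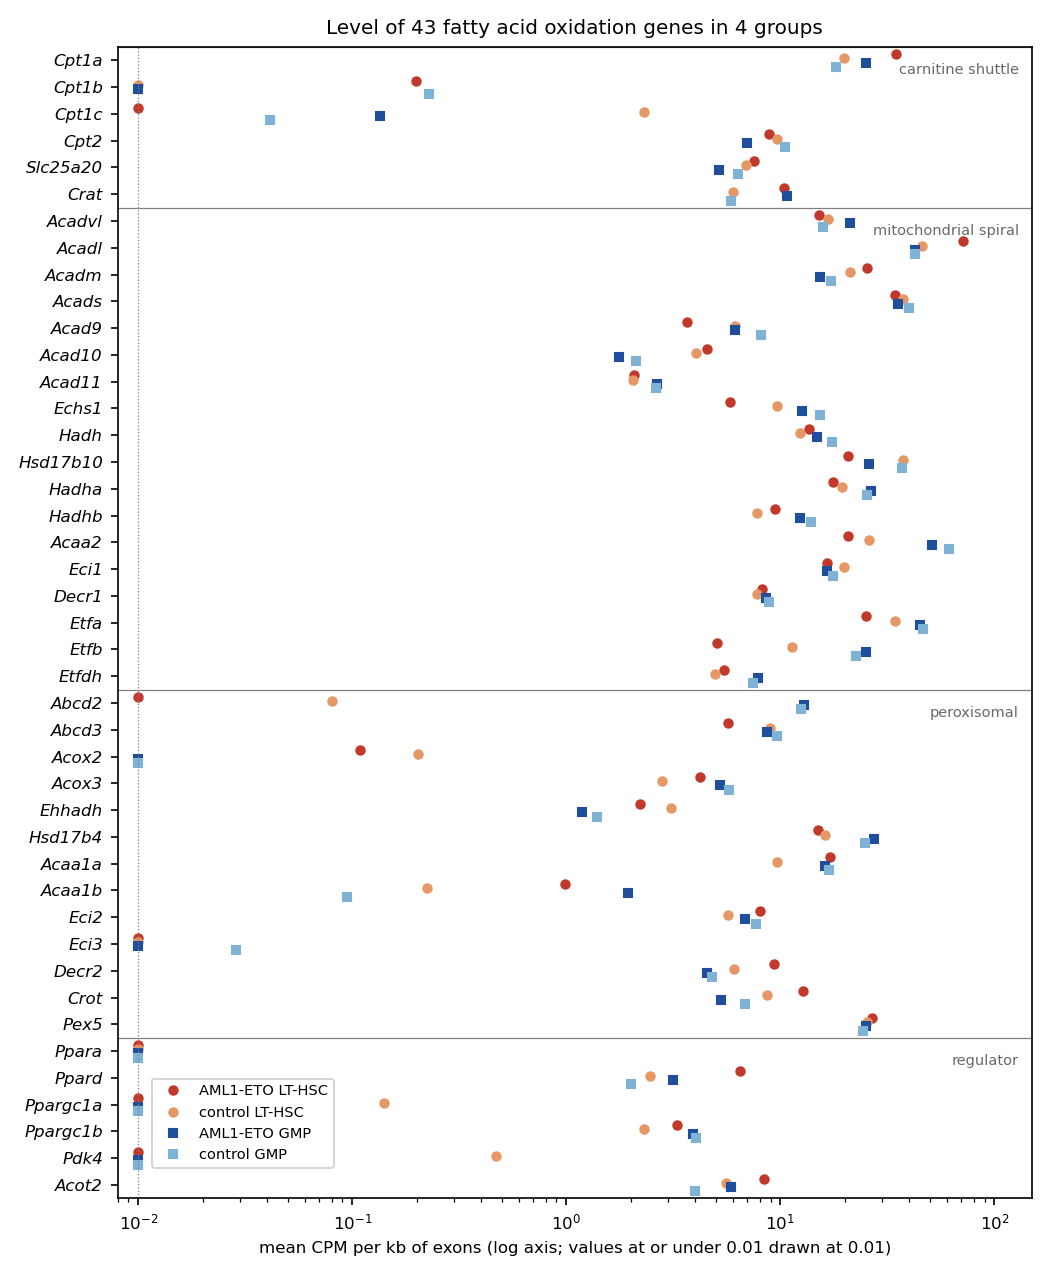
Mean CPM per kb of exons (log axis) of the 43 genes, grouped by role, in AML1-ETO LT-HSCs (n = 3), control LT-HSCs (n = 4), AML1-ETO GMPs (n = 3) and control GMPs (n = 4), with values at or under 0.01 drawn at 0.01. Acadl is the highest in LT-HSCs and Acaa2 in GMPs, and Abcd2 stands near 13 CPM per kb in GMPs and at or near 0 in LT-HSCs.

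The spread between replicates differed by group. Among members with a mean of at least 10 CPM, the median coefficient of variation was 13.3% in AML1-ETO LT-HSCs, 29.6% in control LT-HSCs, 21.9% in AML1-ETO GMPs and 7.05% in control GMPs. Reads of some members may be shared with other genes, and the sources do not give the strand setting of the counting. In GENCODE M21, an annotation of mm10, 81.4% of the exon bases of Cpt1b also belong to Gm44502, 53.0% of those of Etfb to Gm45233 and 42.9% of those of Acadvl to Dvl2 on the other strand. The open reading frames of Acaa1a and Acaa1b are 96.5% identical, those of Eci2 and Eci3 89.5% and those of Acot2 and Acot1, which is not a member, 95.5%. Their counts may thus be split. Values of the members named here are uncertain in this respect.

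Stem cells with the fusion were compared first with control stem cells. Ppard, the receptor PPAR-delta, rose in AML1-ETO LT-HSCs by a log2 fold change of 1.502 ± 0.26 and Acadl by 0.74 ± 0.20 (SE, n = 3 and 4), and no member passed the test as lower. Of the 43 genes 35 were tested, so 2 of 35 (5.71%) were called by edgeR's quasi-likelihood test with Benjamini-Hochberg adjustment over all genes (adjusted p under 0.05), against 12.3% of all 14589 genes tested. By the same test 7.59% of all genes were higher and 4.69% lower, and higher genes made up 61.8% of all calls with TMM, 51.7% with upper-quartile factors and 47.2% with DESeq2's Wald test. At an unadjusted p under 0.05 there were 8 members, 6 higher and 2 lower, and DESeq2's Wald test called 3 higher (Ppard, Acadl, Cpt1a) and 2 lower (Cpt1c, Echs1), 14.3% of the members tested against 19.2% of all genes. Cpt1c, at 0 in AML1-ETO LT-HSCs, could only come out lower. The 3 AML1-ETO values lay outside the range of the 4 control values for 6 members, higher for Ppard, Acadl, Acaa1a and Crot and lower for Echs1 and Eci1. That is 17.1% of the members tested, where 28.5% of all genes tested did so (15.5% higher and 13% lower). Since these are bulk samples, fewer cells of a type and less RNA per cell cannot be told apart.

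Ppard (chromosome 17, 28232700 to 28301474, mm10) had 44.3, 57.8 and 44.1 CPM in LT-HSCs of AML1-ETO mice, against 15.2, 17.7, 23.4 and 17.5 CPM in LT-HSCs of control mice. The lowest AML1-ETO library lay above the highest control library. The adjusted p was 0.0101. Leaving out AML1-ETO LT-HSC replicate 1 gave 0.0534 and leaving out replicate 2 gave 0.0910, while any other library left out gave at most 0.0441. The RefSeq window from 250 bases before to 50 after its start is shown because Ppard has the larger fold change of the 2 members called in stem cells. It lies on the plus strand of GRCm38.p6 at chr17:28232504-28232803 and is 68.3% G and C. In it none of 6 motifs searched on both strands was present, and no letters are in capitals.
Ppard: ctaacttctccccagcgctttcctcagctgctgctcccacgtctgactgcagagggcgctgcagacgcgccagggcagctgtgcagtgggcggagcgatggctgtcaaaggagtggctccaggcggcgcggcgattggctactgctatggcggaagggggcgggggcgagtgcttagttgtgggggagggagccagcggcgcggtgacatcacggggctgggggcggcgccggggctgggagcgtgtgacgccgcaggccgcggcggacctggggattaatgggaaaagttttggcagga

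The searched motifs were the PPAR direct repeat (AGGTCA, any base, and AGGTCA again), AGGTCA alone (the core, also bound by other nuclear receptors), TCAAGGTCA (the extended core of estrogen-related receptors), TGTGGT and TGCGGT (RUNX) and the palindromic NRF1 motif. The direct repeat and TCAAGGTCA contain AGGTCA. RefSeq windows of this length were found for 35 of the 43 members. The PPAR repeat was in 0 of 35 members and in 0.0396% of all 32851 windows, AGGTCA in 5 members (14.3%) and 16.3% of all windows, and TCAAGGTCA in 0 members and 0.423% of all windows. TGTGGT was in 2 members (5.71%) and 16.8% of all windows, TGCGGT in 3 (8.57%) and 6.45%, and the NRF1 motif in 3 (8.57%) and 0.971%. The members with AGGTCA were Cpt1a, Cpt1c, Acadvl, Acadm and Echs1, and those with the NRF1 motif were Acad10, Etfdh and Ppara. A match describes the letters of a window and no match says nothing about a factor.

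In the carnitine shuttle none of 5 genes tested was called in LT-HSCs. Cpt1a (chromosome 19, 3322334 to 3385733), the outer membrane enzyme that controls entry, had 186, 308 and 301 CPM in LT-HSCs of AML1-ETO mice and 207, 176, 123 and 103 CPM in LT-HSCs of control mice. AML1-ETO replicate 1 lay inside the control range and the other 2 above it, and the log2 fold change of 0.89 ± 0.29 did not pass the test (adjusted p = 0.0844). Crat, the carnitine acetyltransferase, had 39.0, 63.6 and 64.9 CPM in LT-HSCs of AML1-ETO mice and 24.8, 25.8, 51.9 and 26.7 CPM in LT-HSCs of control mice. Control replicate 3 was the only control library above 30 CPM, and the log2 fold change was 0.89 ± 0.33 (adjusted p = 0.127, and 0.0181 without that library). Cpt1c had 0 counts in the 3 AML1-ETO LT-HSC libraries, against 24.0, 18.1, 0 and 9.52 CPM in LT-HSCs of control mice, at least 198-fold lower on the group floor of 3 counts. As 1 control library, replicate 3, was also at 0, the groups overlapped, and Cpt1c was not called (adjusted p = 0.0590, and 0.00368 without that library). With every AML1-ETO LT-HSC library at 0, Cpt1c could only come out lower. Its calls as lower in LT-HSCs under alternatives are therefore no support. Cpt2 and Slc25a20 had log2 fold changes of −0.04 ± 0.33 and 0.22 ± 0.30 and were not called.

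The Cpt1a window is shown for its AGGTCA core. It lies on the plus strand of GRCm38.p6 at chr19:3323051-3323350, and the capitals mark the motif, which reads AGGTCA on the minus strand. The leftmost capital is at position −94 from the RefSeq start site. The GENCODE interval of Cpt1a begins at 3322334, before this window, so the annotations differ in the start.
Cpt1a: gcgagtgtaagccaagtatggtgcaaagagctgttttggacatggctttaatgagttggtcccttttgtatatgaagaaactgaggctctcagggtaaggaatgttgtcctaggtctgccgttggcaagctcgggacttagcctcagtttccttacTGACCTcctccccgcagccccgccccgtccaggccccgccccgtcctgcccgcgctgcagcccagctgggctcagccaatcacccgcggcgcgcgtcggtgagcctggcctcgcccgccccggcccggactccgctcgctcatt

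In the mitochondrial spiral 1 of 18 genes was called in LT-HSCs. Acadl (chromosome 1, 66830839 to 66863277) had 141, 149.7 and 139 CPM in LT-HSCs of AML1-ETO mice, against 88.4, 123, 83.3 and 74.2 CPM in LT-HSCs of control mice. All 3 AML1-ETO libraries lay above the control range, whose top was set by control replicate 2. Its adjusted p of 0.0471 was close to the threshold. It was above 0.05 when any 1 of the other 6 libraries was left out (at most 0.165), while without control LT-HSC replicate 2 it was 0.0189. It was 0.0598 with DESeq2 size factors and 0.0976 with upper-quartile factors, a scaling that moved the median over all genes to −0.10, against 0.03 with TMM.

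Echs1, the short-chain enoyl-CoA hydratase, had 45.1, 50.2 and 49.2 CPM in LT-HSCs of AML1-ETO mice and 58.2, 86.5, 89.4 and 86.1 CPM in LT-HSCs of control mice. All AML1-ETO libraries lay below all control libraries, but the log2 fold change of −0.63 ± 0.20 was not called (adjusted p = 0.0837, and 0.0475 with upper-quartile factors). Etfb, the beta subunit of the electron transfer flavoprotein, had the lowest fold of the members with counts in every group, −1.06 ± 0.66 (adjusted p = 0.388), with 3.23, 5.45 and 9.05 CPM in LT-HSCs of AML1-ETO mice and 8.64, 17.9, 19.1 and 7.004 CPM in LT-HSCs of control mice. Its ranges overlapped. The other 15 genes of the spiral lay between −0.76 (Hsd17b10, which also serves mitochondrial RNase P) and 0.39 (Hadhb), none of them called. Very-long-chain (Acadvl) and short-chain (Acads) dehydrogenases were at −0.03 ± 0.30 and −0.03 ± 0.24. The median of the 18 was −0.03, against 0.03 over all genes tested. Summed per kb, the spiral stood at 302 to 308 CPM per kb in AML1-ETO LT-HSCs and 279 to 398 in control LT-HSCs, ranges that overlap.

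Of 9 peroxisomal genes tested in LT-HSCs none was called, and their median log2 fold change was 0.59. Acaa1a, the peroxisomal thiolase, had 64.2, 75.1 and 87.3 CPM in LT-HSCs of AML1-ETO mice and 41.0, 63.6, 28.7 and 37.0 CPM in LT-HSCs of control mice. The lowest AML1-ETO value and the highest control value differed by less than 1 CPM. The log2 fold change of 0.92 ± 0.28 was not called (adjusted p = 0.0706, and 0.0277 without control LT-HSC replicate 2). Crot, which makes carnitine esters of chains shortened in peroxisomes, had 67.5, 75.0 and 67.1 CPM in LT-HSCs of AML1-ETO mice and 58.7, 31.4, 49.6 and 50.3 CPM in LT-HSCs of control mice, again without overlap, and a log2 fold change of 0.65 ± 0.25 (adjusted p = 0.136). Hsd17b4, the bifunctional enzyme of hydration and the dehydrogenation after it, had 49.8, 53.1 and 50.6 CPM in LT-HSCs of AML1-ETO mice, inside the control range of 38.8 to 81.7 CPM, and Pex5, the import receptor, had a log2 fold change of 0.17 ± 0.21. The remaining 5 lay between −0.54 (Abcd3) and 0.72 (Decr2). Summed per kb, the peroxisomal genes stood at 101 to 103 CPM per kb in AML1-ETO LT-HSCs and 77.9 to 100.5 in control LT-HSCs, which leaves a gap of less than 1 CPM per kb. Among the regulators tested beside Ppard, Ppargc1b was at 0.60 ± 0.68 and Acot2, a mitochondrial acyl-CoA thioesterase, at 0.67 ± 1.23, both uncalled. The 8 members not tested for low counts were Abcd2, Acaa1b, Acox2, Cpt1b, Eci3, Pdk4, Ppara and Ppargc1a.

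**Figure D2:**
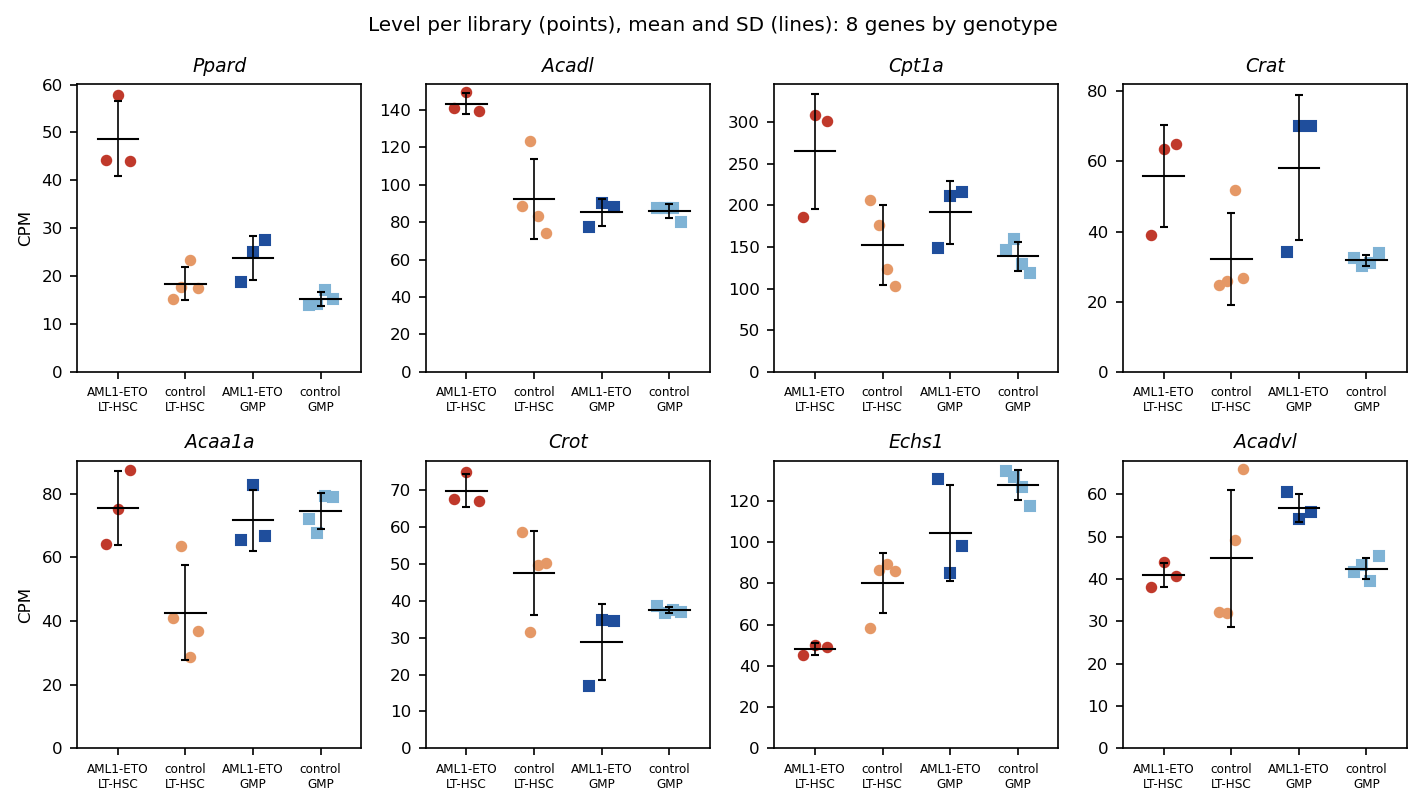
CPM of Ppard, Acadl, Cpt1a, Crat, Acaa1a, Crot, Echs1 and Acadvl in each library (points), with group mean and SD (lines), for AML1-ETO LT-HSCs (n = 3), control LT-HSCs (n = 4), AML1-ETO GMPs (n = 3) and control GMPs (n = 4). Ppard lies above its control range in both cell types, Acadl in LT-HSCs alone, and Crot above it in LT-HSCs and below it in GMPs.

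Other cell types' markers differed between the stem cell groups beside these genes. Summed over 7 mast cell and basophil markers, AML1-ETO LT-HSCs had 7992 to 10322 CPM and control LT-HSCs 6.01 to 34.7 CPM, with Fcer1a and Mcpt4 at 0 in controls. Over 7 B and plasma cell markers they had 111 to 643 CPM and 13019 to 77155 CPM, and over 6 erythroid markers 24.5 to 103 CPM and 298 to 1292 CPM, with no marker at 0. The stromal and adipocyte markers Adipoq and Plin1 were at 0 counts in AML1-ETO LT-HSCs, where 6 such markers summed to 1.69 to 3.73 CPM, against 5.24 to 92.3 CPM in control LT-HSCs. The part of these cells in the values of Ppard, Acadl and the other members was not tested. Without control LT-HSC replicates 2 and 3 together, left out after seeing the data, 5 members were higher (Ppard, Acadl, Acaa1a, Crat, Eci2) and 1 lower (Cpt1c), 15.8% of the 38 tested against 11.4% of all genes in that fit. The call of Cpt1c, which could only come out lower, is no support.

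Progenitors with the fusion were then compared with control progenitors. No member of the 35 tested was called by edgeR (0 of 35), against 9.43% of all 13981 genes tested (5.47% higher and 3.96% lower). At an unadjusted p under 0.05 there were 5 members (Acadvl, Crat, Ppard, Hsd17b10 and Cpt1a). DESeq2's Wald test called 4 higher (Acadvl, Cpt1a, Crat and Ppard) and 0 lower (11.4% of members against 16.5% of all genes), and edgeR with DESeq2 size factors called Acadvl alone. All 35 log2 fold changes were smaller than 1 in size, from −0.56 (Cpt2) to 0.89 (Crat). The median over the members was −0.07, against −0.03 over all genes tested. The groups did not overlap for 6 members, 3 higher (Acadvl, Crat, Ppard) and 3 lower (Crot, Hsd17b10, Slc25a20), which is 17.1% of those tested against 26.7% of all genes tested (10.6% higher and 16.1% lower).

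Crat had 34.3, 70.2 and 70.2 CPM in GMPs of AML1-ETO mice, against 32.3, 30.2, 31.0 and 33.8 CPM in GMPs of control mice, a log2 fold change of 0.89 ± 0.25 (adjusted p = 0.0621). AML1-ETO GMP replicate 1 lay within 1 CPM of the highest control, and the other 2 libraries stood at more than 2 times the control level. Cpt1a had 148, 211 and 216 CPM in GMPs of AML1-ETO mice and 146, 159, 130.1 and 119 CPM in GMPs of control mice, a log2 fold change of 0.49 ± 0.16 (adjusted p = 0.104). Here again replicate 1 lay inside the control range and the others above it. Slc25a20, the translocase between Cpt1 and Cpt2, had 27.6, 21.5 and 25.7 CPM in GMPs of AML1-ETO mice and 32.5, 29.1, 30.1 and 31.1 CPM in GMPs of control mice, at −0.28 ± 0.16 (adjusted p = 0.331).

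Acadvl, which starts the spiral on very long chains, had 60.5, 54.1 and 55.7 CPM in GMPs of AML1-ETO mice and 41.6, 43.2, 39.5 and 45.3 CPM in GMPs of control mice. All 3 AML1-ETO libraries lay above all controls, with a log2 fold change of 0.44 ± 0.12 (adjusted p = 0.0588). Hsd17b10 had 30.6, 39.9 and 30.9 CPM in GMPs of AML1-ETO mice and 48.2, 44.2, 54.2 and 45.0 CPM in GMPs of control mice, all lower than control, at −0.48 ± 0.16 (unadjusted p = 0.0148, edgeR, not called). Acadl did not stand apart in GMPs, with 77.2, 90.3 and 88.3 CPM in AML1-ETO and 87.7, 87.8, 87.3 and 80.2 CPM in GMPs of control mice and a log2 fold change of 0.01 ± 0.10 (adjusted p = 0.971). Hadha, the large subunit of the trifunctional protein, was at 0.07 ± 0.10, and Etfa at −0.03 ± 0.12.

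Ppard had 18.7, 25.1 and 27.4 CPM in GMPs of AML1-ETO mice, against 13.9, 14.2, 17.1 and 15.2 CPM in GMPs of control mice. The groups did not overlap, and the log2 fold change was 0.67 ± 0.21 (adjusted p = 0.0910). It was the only one of the 43 genes with AML1-ETO values above all control values in both cell types, where the test called it in LT-HSCs alone. Crot had 16.8, 34.8 and 34.5 CPM in GMPs of AML1-ETO mice and 38.7, 36.7, 37.4 and 37.1 CPM in GMPs of control mice, below the control range, with −0.36 ± 0.25 (adjusted p = 0.443). The other peroxisomal genes tested lay between −0.22 (Ehhadh) and 0.16 (Hsd17b4).

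AML1-ETO GMPs were uneven as a group, and their summed mast cell and basophil markers were 1184 to 2081 CPM, against 185 to 271 CPM in control GMPs. AML1-ETO GMP replicate 1 had summed erythroid markers of 4299 CPM and neutrophil markers of 1774 CPM, where control GMPs had 6.96 to 12.0 and 5.78 to 15.4 CPM. Over the AML1-ETO GMP libraries Hba-a1 and Hbb-bs reached 2127 CPM each, and no other erythroid marker exceeded 98.6 CPM. AML1-ETO GMP replicate 3 had summed megakaryocyte markers of 1512 CPM, against 84.6 to 107 CPM in control GMPs. In AML1-ETO GMPs Itga2b reached 1347 and Pf4 147 CPM, and no other megakaryocyte marker exceeded 14.5 CPM. Without AML1-ETO GMP replicate 1 there were 3 members higher (Cpt1a, Crat, Ppard) and 3 lower (Acox3, Cpt1b, Echs1), 16.7% of those tested against 17% of all genes in that fit. Without replicate 2 there were 2 higher (Acaa1b, Acadvl) and 4 lower (Acad9, Cpt1b, Hadhb, Hsd17b10), 16.2% against 24.2% of all genes. Without replicate 3 there were 0 higher and 2 lower (Cpt1b, Hadh), 5.56% against 12.9% of all genes. Cpt1b and Acaa1b were too low to be tested with all 7 GMP libraries. As Cpt1b was at 0 in AML1-ETO GMPs, it could only come out lower, and its calls here are no support. The part of other cells in these values was not tested.

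**Figure D3:**
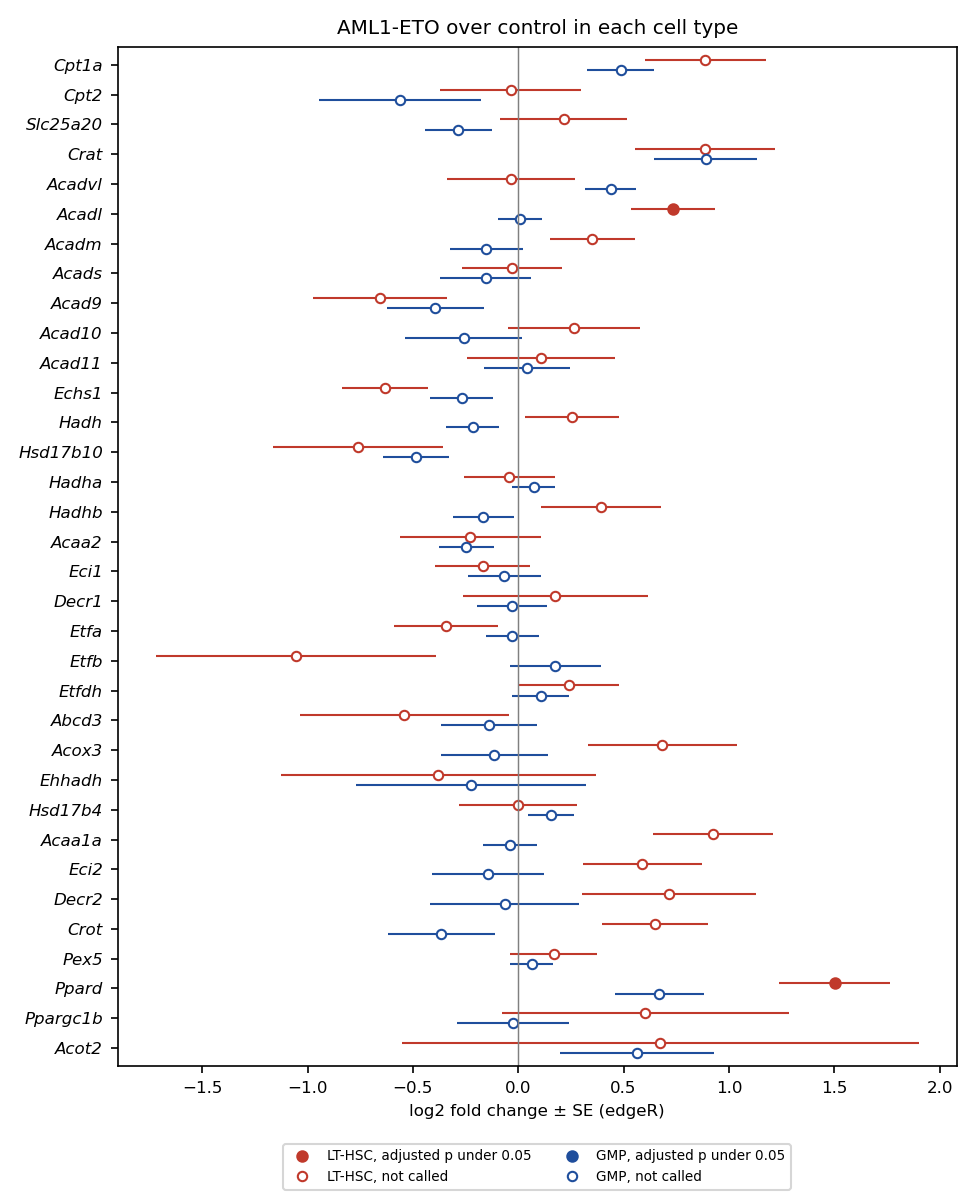
Log2 fold change of AML1-ETO over control with SE (edgeR) in LT-HSCs and in GMPs for 34 members, with filled points at an adjusted p under 0.05. Ppard and Acadl in LT-HSCs are the only filled points. The other 9 members are not drawn because they were not tested in both cell types or had a group at 0.

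The difference between the fusion's effects in GMPs and in LT-HSCs was tested directly in 1 fit of all 14 samples, with 38 members tested. By edgeR 1 member differed (2.63%) and it was lower, against 6.34% of all 16116 genes (3.43% higher and 2.91% lower). It was Cpt1b, whose levels were very low: 0, 0 and 0 CPM in GMPs of AML1-ETO mice, 1.12, 0.592, 0.909 and 0.466 CPM in GMPs of control mice, 0.538, 0.307 and 1.16 CPM in LT-HSCs of AML1-ETO mice and 0, 0, 0 and 0 CPM in LT-HSCs of control mice. It thus had counts in AML1-ETO LT-HSCs and control GMPs alone. The fitted difference of −13.09 (adjusted p = 0.0112) rests on 2 groups at 0 and is no measure of size, and the call was lost with a replicate block (adjusted p = 0.265). Without control GMP replicate 1 or 3 its counts were too low to be tested, and 81.4% of its exon bases are shared with Gm44502. No member was higher, with 7 members at an unadjusted p under 0.05 (Cpt1b, Acadl, Acaa1a and Crot lower and Cpt1c, Abcd2 and Etfb higher), and DESeq2's Wald test called Cpt1c higher. That call of Cpt1c rests on AML1-ETO LT-HSCs at 0.

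Ppard did not pass that test of the difference: its effect in GMPs minus that in LT-HSCs was −0.75 ± 0.36 (adjusted p = 0.253). For Acadl the difference was −0.64 ± 0.23 (adjusted p = 0.117, and 0.0139 without control LT-HSC replicate 2), for Acaa1a −0.88 ± 0.33 (adjusted p = 0.130, and 0.0174 without that library) and for Crot −0.94 ± 0.37 (adjusted p = 0.153). Crat and Cpt1a, at 0.08 ± 0.44 and −0.33 ± 0.35, did not pass it either (adjusted p = 0.977 and 0.700).

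Within each genotype, GMPs were set against LT-HSCs to see how the pathway differs between the cell types. In control mice 10 members were higher in GMPs and 1 lower, together 28.9% of the 38 tested, against 24.5% of all 16116 genes. In AML1-ETO mice 7 were higher and 6 lower (34.2%), against 21.7% of all genes. In control mice 26.3% of the members were higher against 13.9% of all genes, and in AML1-ETO mice 18.4% against 12.6%. Lower members made up 2.63% against 10.6% of all genes in control mice, and 15.8% against 9.15% in AML1-ETO mice. These counts come from the fit without a replicate block. With same-numbered samples of each genotype paired, 6 members were higher and 4 lower in AML1-ETO mice (26.3%, against 16.3% of all genes). Scaling bears on the split: 56.9% of all calls in control mice were higher with TMM, 44.9% with DESeq2 size factors and 47.4% with upper-quartile factors, and the median log2 fold change over all genes was 0.02, −0.12 and −0.08. With either alternative 7 members were higher and 1 lower in control mice, and 6 higher and 6 lower in AML1-ETO mice, where upper-quartile factors moved the median of all genes to −0.11, against 0 with TMM. Both comparisons use libraries of the genotype comparisons above, so their values are not independent of those.

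Abcd2 (chromosome 15, 91145871 to 91191799), a transporter of very long fatty acids into peroxisomes, differed most of the members tested. It had 70.0, 122 and 37.6 CPM in GMPs of AML1-ETO mice, against 0 counts in the 3 AML1-ETO LT-HSC libraries, at least 1178-fold higher. In control mice it had 74.7, 84.4, 65.9 and 73.4 CPM in GMPs, against 0, 1.91, 0 and 0 CPM in LT-HSCs, a log2 fold change of 7.30 ± 1.07 (adjusted p = 0.000487). Every GMP library was above 37 CPM and every LT-HSC library below 2 CPM. Abcd3, the transporter for long and branched chains, was not called, with 57.0 ± 21.1 and 37.7 ± 6.00 CPM in AML1-ETO GMPs and LT-HSCs, and 63.5 ± 2.41 and 58.9 ± 45.5 CPM in control GMPs and LT-HSCs.

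The thiolase gene Acaa2 had 78.9, 66.0 and 86.7 CPM in GMPs of AML1-ETO mice, against 35.2, 31.3 and 27.4 CPM in LT-HSCs of AML1-ETO mice, and 102, 89.4, 96.3 and 83.0 CPM in GMPs of control mice, against 40.3, 60.8, 30.7 and 25.5 CPM in LT-HSCs of control mice. No LT-HSC library of either genotype reached a GMP library. Its log2 fold changes were 1.30 ± 0.27 in AML1-ETO mice and 1.24 ± 0.23 in control mice (adjusted p = 0.00341 and 0.00172), and both calls held without any 1 of the 14 libraries. Echs1 had 130.5, 85.3 and 98.3 CPM in GMPs of AML1-ETO mice and 134, 131, 127 and 118 CPM in GMPs of control mice. In each genotype every GMP library lay above every LT-HSC library. Its log2 fold changes were 1.12 ± 0.19 in AML1-ETO mice and 0.67 ± 0.17 in control mice (adjusted p = 0.000948 and 0.00937).

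The trifunctional protein carries out the last 3 steps on long chains, and its gene Hadhb was higher in GMPs of control mice, Hadha in GMPs of AML1-ETO mice, neither passing the test of the difference between genotypes. Hadhb had 93.3, 92.2, 91.4 and 91.7 CPM in GMPs of control mice, against 28.4, 56.5, 56.3 and 63.1 CPM in LT-HSCs of control mice, a log2 fold change of 0.85 ± 0.22 (adjusted p = 0.0119), and 76.2, 101 and 66.8 CPM in GMPs of AML1-ETO mice, against 69.6, 53.4 and 63.8 CPM in LT-HSCs of AML1-ETO mice, at 0.38 ± 0.25 (adjusted p = 0.318, not called). The control GMP values lay within 2 CPM of each other and above every LT-HSC library. Hadha had 264, 207 and 225 CPM in GMPs of AML1-ETO mice and 139.9, 156 and 164 CPM in LT-HSCs of AML1-ETO mice, a log2 fold change of 0.60 ± 0.19 (adjusted p = 0.0380). With same-numbered samples of each genotype paired, the adjusted p was 0.0791, and DESeq2 size factors gave 0.0783. The call held in 5 of 14 fits without 1 library. In control mice it had 221, 228, 229.9 and 213 CPM in GMPs and 117, 154, 206 and 200.5 CPM in LT-HSCs and was not called, at 0.40 ± 0.16 (adjusted p = 0.0940).

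The start sites of Hadha and Hadhb lie 273 bases apart on opposite strands, and across the 14 samples their log2 CPM had a Pearson r of 0.755, a description over libraries that share scaling and cell type. The window of Hadhb is shown for this shared promoter region. It lies on the plus strand of GRCm38.p6 at chr5:30155003-30155302, and the capitals mark the 228 bases that it shares with the window of Hadha.
Hadhb: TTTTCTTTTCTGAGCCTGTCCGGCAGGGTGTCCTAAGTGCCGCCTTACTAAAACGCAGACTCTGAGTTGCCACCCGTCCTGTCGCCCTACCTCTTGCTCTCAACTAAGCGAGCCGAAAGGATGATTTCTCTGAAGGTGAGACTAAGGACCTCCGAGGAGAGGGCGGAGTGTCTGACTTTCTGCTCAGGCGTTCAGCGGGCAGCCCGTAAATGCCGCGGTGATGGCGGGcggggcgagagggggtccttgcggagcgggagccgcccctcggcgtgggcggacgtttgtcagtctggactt

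The electron transfer flavoprotein genes Etfb and Etfa were called higher in GMPs of AML1-ETO mice and their partner Etfdh in GMPs of control mice, but none of the 3 passed the test of the difference between genotypes. Etfb had 37.9, 28.4 and 22.0 CPM in GMPs of AML1-ETO mice, against 3.23, 5.45 and 9.05 CPM in LT-HSCs of AML1-ETO mice, with no overlap, at 2.31 ± 0.48 (adjusted p = 0.00335). In control mice 27.8, 22.9, 29.8 and 25.0 CPM in GMPs stood against 8.64, 17.9, 19.1 and 7.004 CPM in LT-HSCs, again without overlap, but 1.001 ± 0.40 was not called (adjusted p = 0.0815, and 0.0377 without control LT-HSC replicate 3). Etfa had 71.8, 87.6 and 89.4 CPM in GMPs of AML1-ETO mice and 49.0, 43.9 and 46.1 CPM in LT-HSCs of AML1-ETO mice, higher by 0.84 ± 0.21 (adjusted p = 0.0111). In control mice it had 89.9, 85.0, 91.8 and 75.7 CPM in GMPs and 54.9, 74.9, 79.1 and 43.9 CPM in LT-HSCs, ranges that overlap, and was not called (adjusted p = 0.0935, and 0.0356 without control LT-HSC replicate 3). Etfdh, the oxidoreductase that receives the electrons, had 57.9, 61.4, 54.2 and 49.6 CPM in GMPs of control mice and 29.1, 33.4, 45.0 and 40.5 CPM in LT-HSCs of control mice, higher by 0.59 ± 0.18 (adjusted p = 0.0248, and 0.0731 with DESeq2 size factors). In AML1-ETO mice it had 55.8, 67.6 and 54.6 CPM in GMPs and 37.4, 43.5 and 41.5 CPM in LT-HSCs, without overlap, and was not called (adjusted p = 0.0716, and 0.0440 without control LT-HSC replicate 1 or 0.0422 without control LT-HSC replicate 3).

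Hsd17b4 was higher in GMPs of both genotypes, with 97.0, 83.8 and 98.1 CPM in GMPs of AML1-ETO mice against 49.8, 53.1 and 50.6 CPM in LT-HSCs of AML1-ETO mice, and 83.1, 76.6, 90.0 and 88.3 CPM in GMPs of control mice against 38.8, 43.5, 55.3 and 81.7 CPM in LT-HSCs of control mice. Control LT-HSC replicate 4 was the only stem cell library inside the range of GMPs. The log2 fold changes were 0.86 ± 0.23 and 0.62 ± 0.20 (adjusted p = 0.0160 and 0.0347) in AML1-ETO and control mice, and the control value was 0.0960 with DESeq2 size factors. Acaa1a, at 72.2, 67.6, 79.4 and 78.9 CPM in GMPs of control mice, was higher than in control LT-HSCs by 0.81 ± 0.21 (adjusted p = 0.0142). In AML1-ETO mice, with 65.5, 82.8 and 66.8 CPM in GMPs, it was not called (−0.08 ± 0.25, adjusted p = 0.887). Acox3, an oxidase of branched chains, had 63.4, 69.4, 67.0 and 64.6 CPM in GMPs of control mice and 35.0, 23.0, 50.3 and 20.3 CPM in LT-HSCs of control mice, higher by 1.04 ± 0.30 (adjusted p = 0.0212). In AML1-ETO mice 90.7, 41.3 and 49.2 CPM in GMPs overlapped 37.3, 55.7 and 52.0 CPM in LT-HSCs. Hadh, the short-chain hydroxyacyl-CoA dehydrogenase, had 90.0, 83.4, 89.9 and 85.7 CPM in GMPs of control mice and 52.3, 68.8, 57.6 and 66.2 CPM in LT-HSCs of control mice, at 0.51 ± 0.17 (adjusted p = 0.0370, and 0.124 with DESeq2 size factors). Cpt1b, with its few counts, was at least 15.9-fold higher in control GMPs than in control LT-HSCs and at least 10.4-fold lower in AML1-ETO GMPs than in AML1-ETO LT-HSCs (adjusted p = 0.0105 and 0.0236), and with the samples paired the AML1-ETO value was 0.289.

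Against LT-HSCs, 6 members were lower in GMPs of AML1-ETO mice and 1 in GMPs of control mice. Acad10, an acyl-CoA dehydrogenase family member, had 7.56, 10.5 and 13.9 CPM in GMPs of AML1-ETO mice, against 26.7, 26.6 and 29.8 CPM in LT-HSCs of AML1-ETO mice, and 14.1, 13.1, 12.3 and 12.2 CPM in GMPs of control mice, against 32.8, 17.9, 26.2 and 21.3 CPM in LT-HSCs of control mice. No GMP library reached an LT-HSC library. The log2 fold changes were −1.38 ± 0.33 and −0.93 ± 0.29 in AML1-ETO and control mice (adjusted p = 0.00909 and 0.0299), and in control mice 7 of the 14 fits without 1 library lost the call. Acadl and Crot, whose values stand above, were lower in AML1-ETO GMPs than in AML1-ETO LT-HSCs, with log2 fold changes of −0.75 ± 0.17 and −1.28 ± 0.28 (adjusted p = 0.00701 and 0.00479). In control mice they were not called, at −0.11 ± 0.15 and −0.34 ± 0.24. Acadm, the medium-chain dehydrogenase, had 43.4, 70.5 and 65.2 CPM in GMPs of AML1-ETO mice and 104, 101 and 92.9 CPM in LT-HSCs of AML1-ETO mice, at −0.73 ± 0.20 (adjusted p = 0.0164). In control mice 64.6, 68.3, 65.8 and 70.3 CPM in GMPs and 103, 77.5, 67.2 and 84.5 CPM in LT-HSCs overlapped, at −0.30 ± 0.17. Ppard was lower in AML1-ETO GMPs than in AML1-ETO LT-HSCs, at −1.04 ± 0.27 (adjusted p = 0.0141). That call was lost with the samples paired (0.0578) and without AML1-ETO LT-HSC replicate 2 (0.0906) or AML1-ETO GMP replicate 1 (0.0569). Ppard was not called in control mice (−0.29 ± 0.23). Some of these calls rested on single libraries. In control mice the call held in 11 of 14 fits without 1 library for Acox3, in 10 for Etfdh, in 8 for Hadh and in 7 for Hsd17b4, and each of these 4 was lost without control GMP replicate 2 and without control GMP replicate 3. Hsd17b4 was not called in control mice without control LT-HSC replicates 2 and 3 together either (adjusted p = 0.134). In AML1-ETO mice Etfa held in 13 of 14 fits, lost without AML1-ETO LT-HSC replicate 2. Acadm and Hsd17b4 held in 11 of 14 each, lost for Hsd17b4 without any 1 AML1-ETO LT-HSC library and for Acadm without AML1-ETO LT-HSC replicate 1 or 2 or AML1-ETO GMP replicate 1, and Cpt1b held in 7 of 14. Whether these cell type differences depend on genotype is the test of the difference above, which none of Acadl, Crot, Acadm, Acad10 and Ppard passed.

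**Figure D4:**
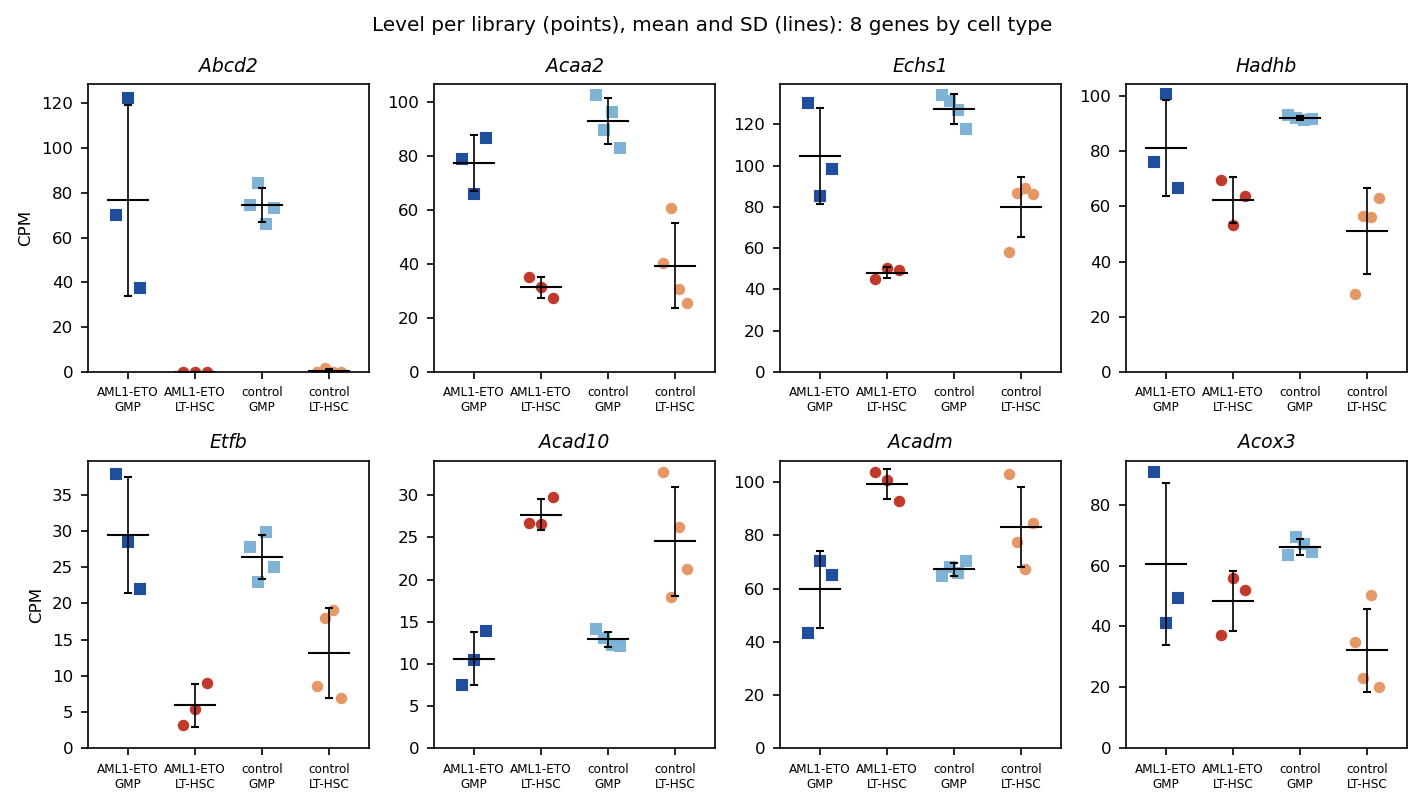
CPM of Abcd2, Acaa2, Echs1, Hadhb, Etfb, Acad10, Acadm and Acox3 in each library (points), with group mean and SD (lines), for AML1-ETO GMPs (n = 3), AML1-ETO LT-HSCs (n = 3), control GMPs (n = 4) and control LT-HSCs (n = 4). Abcd2 is near 0 in LT-HSCs of both genotypes, Acaa2 and Etfb lie higher and Acad10 lower in GMPs without overlap.

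**Figure D5:**
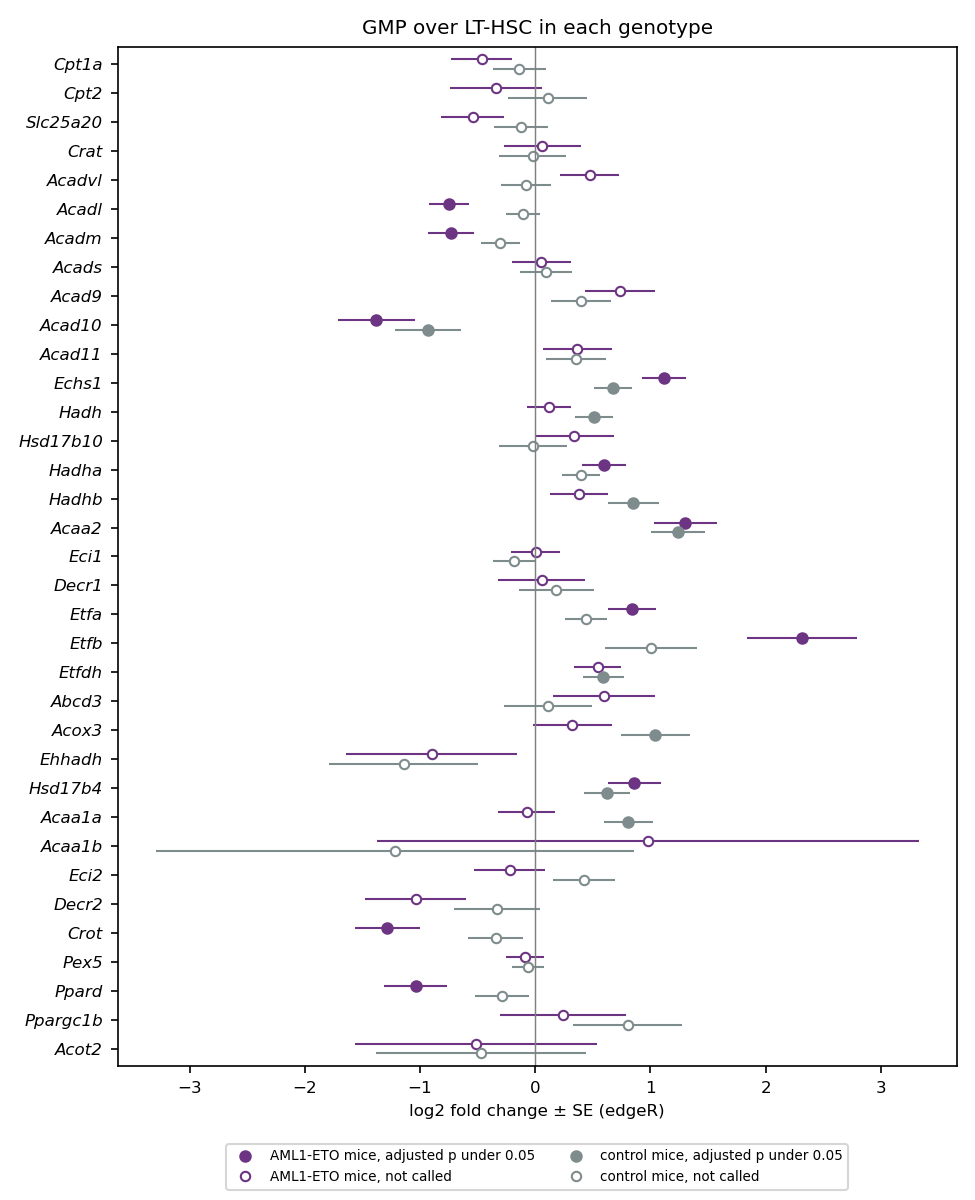
Log2 fold change of GMPs over LT-HSCs with SE (edgeR) in AML1-ETO mice and in control mice for 35 members, with filled points at an adjusted p under 0.05. Echs1, Acaa2, Hsd17b4 and Acad10 are filled in both genotypes, and Acadl, Acadm, Crot and Ppard are filled below 0 in AML1-ETO mice. The other 8 members, Abcd2 and Cpt1b among them, are not drawn because they were not tested or had a group at 0.

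The spiral as a whole summed to 351 to 390 CPM per kb in AML1-ETO GMPs against 302 to 308 in AML1-ETO LT-HSCs, and to 382 to 418 in control GMPs against 279 to 398 in control LT-HSCs. The peroxisomal genes summed to 113 to 119 CPM per kb in AML1-ETO GMPs against 101 to 103 in AML1-ETO LT-HSCs, and to 114 to 117 in control GMPs against 77.9 to 100.5 in control LT-HSCs. GMPs lay above LT-HSCs without overlap for the spiral in AML1-ETO mice, and for the peroxisomal sum in both genotypes. Without Abcd2, a sum chosen after seeing the data, the ranges overlapped in both genotypes. The peroxisomal genes then stood at 98.1 to 107 CPM per kb in AML1-ETO GMPs against 101 to 103 in AML1-ETO LT-HSCs. In control mice they stood at 99.3 to 104 in GMPs against 77.5 to 100.5 in LT-HSCs. The means without Abcd2 were 102.4 and 102.2 CPM per kb in AML1-ETO GMPs and LT-HSCs. In control GMPs and LT-HSCs they were 102.3 and 86.9, against 114.9 and 87.0 with Abcd2, so a difference of means remained. The carnitine shuttle overlapped between genotypes within a cell type and between cell types within a genotype, with 34.5 to 55.0, 43.5 to 71.0, 40.4 to 42.1 and 36.5 to 52.6 CPM per kb in AML1-ETO GMPs, AML1-ETO LT-HSCs, control GMPs and control LT-HSCs.

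Around the 43 genes, 70 further genes of the pathway were counted, 59 of them tested in each genotype comparison. In LT-HSCs 5 were higher with AML1-ETO and 5 lower (16.9% of the 59, against 12.3% of all genes), with a median log2 fold change of 0.03 as over all genes. The calls of 2 peroxisomal genes were the steadiest. Nudt7, a peroxisomal enzyme that degrades coenzyme A, had 81.9, 93.8 and 78.8 CPM in LT-HSCs of AML1-ETO mice, against 8.11, 8.73, 7.21 and 9.79 CPM in LT-HSCs of control mice, and rose by 3.42 ± 0.23 (adjusted p = 0.000502). Pex6, which helps to recycle Pex5, had 260.3, 258 and 258 CPM in LT-HSCs of AML1-ETO mice, against 108, 98.2, 92.0 and 94.6 CPM in LT-HSCs of control mice, and rose by 1.495 ± 0.15 (adjusted p = 0.00148). Neither gene's groups overlapped, and both calls held without any 1 of the 7 libraries.

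The other 3 that rose in LT-HSCs were Rxra, the partner receptor of PPARs (1.36 ± 0.30, adjusted p = 0.0227), Esrra, an estrogen-related receptor that acts with the Ppargc1 coactivators (1.40 ± 0.37, adjusted p = 0.0431), and Ucp2, a carrier of the mitochondrial inner membrane (0.68 ± 0.18, adjusted p = 0.0423). The 5 that fell were Acsl3, an acyl-CoA synthetase (−2.45 ± 0.48, adjusted p = 0.0150), Oxct1 and Acat1, which serve the use of ketone bodies (−1.04 ± 0.18 and −0.75 ± 0.20, adjusted p = 0.00946 and 0.0423), Acot1, a cytosolic thioesterase (−2.64 ± 0.72, adjusted p = 0.0485), and Pex11a, which takes part in the division of peroxisomes (−2.40 ± 0.59, adjusted p = 0.0348). Each of these 8 calls was lost without at least 1 library. Acot1 shares 95.5% of its aligned reading frame with Acot2, so reads may be split between them.

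In GMPs 4 of the 59 tested were higher with AML1-ETO and 4 lower (13.6%, against 9.43% of all genes), with a median of −0.10. Plin2, a coat protein of lipid droplets, had 119, 188 and 135 CPM in GMPs of AML1-ETO mice, against 78.4, 82.1, 87.4 and 67.4 CPM in GMPs of control mice, and rose by 0.92 ± 0.17 (adjusted p = 0.0216). The groups did not overlap. Rxra and Nudt7 rose by 2.57 ± 0.59 and 1.03 ± 0.20 (adjusted p = 0.0330 and 0.0235), where AML1-ETO GMP replicate 1, at 6.71 CPM of Rxra, lay close to the controls.

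Acaca, whose product malonyl-CoA inhibits Cpt1, had 27.7, 46.2 and 31.3 CPM in GMPs of AML1-ETO mice, against 67.2, 72.0, 66.9 and 78.0 CPM in GMPs of control mice, and fell, with a log2 fold change of −1.001 ± 0.19 (adjusted p = 0.0228). Oxct1, Ivd of leucine breakdown and Nudt19, another coenzyme A diphosphatase, had −0.51 ± 0.11, −0.51 ± 0.13 and −0.60 ± 0.14 (adjusted p = 0.0279, 0.0429 and 0.0355). The 7 calls named here in GMPs were lost when any 1 of the 4 control libraries was left out, with adjusted p-values of at most 0.140. The difference between cell types was itself called for 4 of the 62 tested (6.45%, against 6.34% of all genes). Plin2 had a higher effect in GMPs (1.45 ± 0.34, adjusted p = 0.0206), and Pex6, Nudt7 and the mitochondrial deacetylase gene Sirt3 a lower one (−1.40 ± 0.24, −2.31 ± 0.31 and −1.35 ± 0.36, adjusted p = 0.00463, 0.00109 and 0.0399). Between GMPs and LT-HSCs the test called 11 of 62, 7 up and 4 down, in AML1-ETO mice (17.7%, against 21.7% of all genes), and 15 of 62, 12 up and 3 down, in control mice (24.2%, against 24.5%).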

How the data were processed

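RNA was extracted with the RNeasy Plus Micro kit and libraries were made with TaKaRa SMART-Seq v4 (low input) and SMARTer Stranded kits, per the labels' protocols. The authors deposited 1 table of raw read counts per gene, which was not normalised. HISAT2 2.0.5, featureCounts 1.5.0-p3 and mm10 are named in the submitters' processing notes, with no strand setting or annotation release.

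From these counts, genes were filtered with filterByExpr, scaled by TMM and tested with edgeR 4.0.16 (R 4.3.3, quasi-likelihood test, Benjamini-Hochberg adjustment over all genes, called at an adjusted p under 0.05). Genotype comparisons used the 7 samples of a cell type, and the other comparisons used 1 fit of all 14. The labels name no molecular identifiers, so floors cover counting error only. Lengths and overlaps came from GENCODE M21, promoters from RefSeq GRCm38.p6. DESeq2 1.42.0 served as an alternative. The code of the fits was run on simulated counts. Their spread was set below that of the LT-HSC fit and of the fit of all 14 samples. The run thus checks the code and not how well changes are found in these data.

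The 43 members and the lists were chosen with earlier results of these data known. Values per sample are given for members called in any comparison or without overlap in both cell types, and further pathway genes are named where called between genotypes, except 1 that is not reported here. Values of other members (Cpt1a, Crat, Acadvl, Hsd17b10, Slc25a20, Cpt1c, Ppargc1a, Pdk4) were added after they were seen.

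The main fits held no replicate block. Same-numbered AML1-ETO LT-HSC and GMP samples deviated together (r of 0.128, 0.287 and 0.209 over 9774 genes), so a block was run as an alternative. In the fit of all 14 samples that block also joined same-numbered control samples. No other pair of groups had every r over 0.1.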

Additional observations from a re-analysis of the deposited data

Results flagged for a closer look

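In 4 of 66 member groups of 4 control libraries, 1 library stood far from the other 3 by Dixon's criterion, which chance meets in about 1 in 20 groups. Crat was high in control LT-HSC replicate 3, at 51.9 CPM, and Abcd3 was high in the same library, at 126 CPM. Echs1 was low in control LT-HSC replicate 1, at 58.2 CPM, and Acadl was low in control GMP replicate 4, at 80.2 CPM. The effect of AML1-ETO on Cpt1b differed between GMPs and LT-HSCs by a fitted log2 value of −13.09 (edgeR, adjusted p = 0.0112, and 0.265 with a replicate block), at levels of at most 1.16 CPM in any library.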

How the results depend on the processing

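No single gene with an unadjusted p under 0.05 changed the sign of its fold change under any alternative run, but medians and splits did. Between cell types the members' median turned to −0.03 in AML1-ETO mice (0.09 with TMM) and to −0.04 in control mice (0.11 with TMM) with DESeq2 size factors, and all genes called to 1722 higher and 1744 lower (2031 and 1474) and to 1698 and 2087 (2247 and 1702). Between GMP groups the members' median of −0.07 was 0.02 without AML1-ETO GMP replicate 1, and all genes called were 1550 higher and 1964 lower without replicate 2 and 913 and 959 without replicate 3, against 765 and 554. In LT-HSCs, members higher with AML1-ETO numbered 2, and 1 with DESeq2 size factors, upper-quartile factors, no filter or a mean of at least 1 CPM, 0 with a replicate block, 5 in 1 fit of all 14 samples and 5 without control LT-HSC replicates 2 and 3, an alternative chosen after seeing the data. Members lower numbered 0, and 1 with upper-quartile factors, 2 with DESeq2's Wald test, 2 in the fit of 14 and 1 without those libraries. The Wald test, the fit of 14 and the fit without those libraries each count Cpt1c, which could only come out lower. All genes called numbered 1791, and 2795 with the Wald test, 525 with the block and 3166 in the fit of 14.

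In GMPs, members higher numbered 0, and 1 with DESeq2 size factors and 4 with the Wald test. All genes called numbered 1319, and 2308 with the Wald test, 816 without a filter, 112 with the block and 458 in the fit of 14. For the difference between cell types, members higher numbered 0, and 1 with the Wald test and 1 without control LT-HSC replicates 2 and 3. Members lower numbered 1, and 0 with a mean of at least 1 CPM, 0 with the block and 3 without those libraries. All genes called numbered 1021, and 1781 with the Wald test and 508 with the block. Between cell types in control mice, members lower numbered 1, and 2 with the Wald test, 0 without a filter, 0 with the block and 3 without those libraries.

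Leaving out 1 library at a time gave 0 to 3 members higher, 0 to 1 lower and 334 to 2376 genes in LT-HSCs, and 0 to 3 higher, 0 to 4 lower and 131 to 3514 genes in GMPs. For the difference it gave 0 to 1 higher, 0 to 3 lower and 471 to 1477 genes. Between cell types it gave 5 to 12 higher and 0 to 2 lower in control mice, and 4 to 8 higher, 3 to 6 lower and 2092 to 4577 genes in AML1-ETO mice. The cause of these shifts was not tested.

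Same-numbered samples deviated together, with every r over 0.1, in the AML1-ETO comparison of cell types alone. There the block gave 6 members higher and 4 lower, and in it Ppard, Hadha and Cpt1b lost their calls. Elsewhere a number shared by samples need not mark a pair: r was 0.0231, −0.123 and 0.0325 between LT-HSC groups, 0.0941, −0.122 and 0.0316 between GMP groups, and −0.0297, −0.154, −0.0123 and 0.105 in control mice. The 3 or 4 libraries a group limit precision, most in AML1-ETO GMPs and control LT-HSCs, where members varied by a median of 21.9% and 29.6%.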
